A study of Mus musculus with 24 samples.

Results

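B16F10 cells in which Rnf31 had been knocked out were compared with control knockout cells, both kept on vehicle, over every gene that could be tested. The comparison rests on 6 of the 24 libraries of the series, 3 labelled koRnf31 with Veh and 3 labelled Control with Veh, chosen by those labels alone, and on 13527 genes. B16F10 is a pigmented mouse melanoma line. The series holds this line in 4 genotypes (a control knockout, labelled WT, and knockouts of Rnf31, of Atg5 and of both genes), each with vehicle or with TNFα at 2 ng/ml for 24 h, and its title concerns making resistant cancer cells sensitive to cytokines that T cells release. Both groups compared here were therefore melanoma cells with Atg5 intact and no added cytokine, plated in 6-well plates and harvested after 24 h, and they differ by label only in the knockout. The sources used here do not say whether a knockout line was 1 clone or a pool, where the genes were cut or how the control knockout was made. The labels call the 3 libraries of a group biological replicates and name 1 line per genotype, so p-values measure the spread between cultures of a line, and a difference between lines cannot be told apart from the loss of Rnf31.

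Rnf31, also called HOIP, is the ubiquitin ligase that gives LUBAC, the complex that assembles linear ubiquitin chains, its activity, and Rbck1 (HOIL-1) and Sharpin are its partners. The complex joins ubiquitin molecules head to tail on proteins of the TNF receptor and other immune receptors. Those chains hold the IKK kinases that free NF-kB, and they restrain the caspase-8 and Ripk1 complexes that kill the cell. Otulin and Cyld take the chains apart. B16F10 cells are of the pigment cell lineage, which makes melanin in melanosomes, organelles related to lysosomes.

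The 6 libraries held 24686025 to 33385502 counts assigned to named genes. Melanocyte-defining genes were present (8 of 8, Mitf, Sox10, Tyr, Tyrp1, Dct, Pmel, Mlana and Slc45a2), with a summed level of 22000 to 22600 CPM (the counts of a gene scaled to its library's total) in control and 20000 to 20400 in knockout libraries. None of the 6 leukocyte-defining and 4 keratinocyte-defining genes had a row in the table, 3 of 5 fibroblast genes summed to 10.1 to 11.9 CPM in control and 14.6 to 15.4 CPM in knockout libraries, and 1 of 4 endothelial genes stayed at or below 0.127 CPM. Levels are shares of a library, so a smaller share of cells with a transcript and less of it per cell cannot be told apart. Control replicate 2 stood apart from the other controls: the chi-square per degree of freedom between it and them was 30 and 19, against 3.09 to 4.71 for the other pairs within the 2 groups. Deviations from the series mean also ran with transcript length. Per doubling of length they changed by -0.0585, -0.187 and -0.0744 (log2) in control replicates 1, 2 and 3, and by 0.0513, 0.0599 and 0.0912 in the knockout libraries.

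That trend goes through every count below. Genes were put into 5 equal classes of length. In the shortest class (204 to 1794 nt), 98 genes were higher and 1032 lower in knockout cells, with a median log2 fold change of -0.26. In the longest class (5127 to 123179 nt), 1357 were higher and 163 lower, with a median of 0.24. Under TNFα the medians of these classes were -0.16 and 0.19, and between the double and the Atg5 knockout on vehicle they were -0.03 and 0.02. The design cannot tell a length effect of the libraries apart from an effect of the genotype on long and short transcripts. Each gene group is therefore given as counted. A length-corrected value (each library's smooth trend with length removed) stands beside it in many, but not all, cases where it ends a call or moves a value by over 1.5 times.

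**Figure D1:**
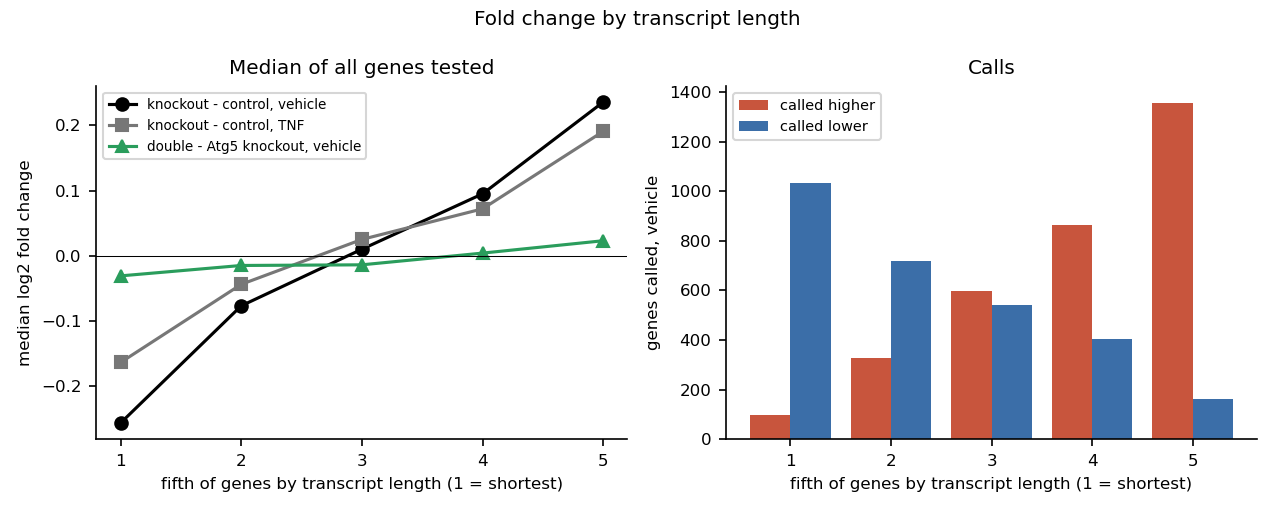
Left, the median log2 fold change of the tested genes in each of 5 classes of transcript length for 3 comparisons; right, the number of genes called higher (red) or lower (blue) in Rnf31 knockout cells on vehicle in each class. The vehicle median goes from -0.26 in the shortest to 0.24 in the longest class, and the TNFα comparison of the same lines follows it.

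The targeted gene was lower in knockout cells by a small amount. Rnf31 (chr14:55591708-55603693, plus strand, GRCm38) stood at 10.7, 9.999 and 8.61 CPM in control and at 7.74, 7.85 and 8.52 CPM in knockout libraries. All 3 knockout values lay below the control values, the highest of them only just. The log2 fold change was -0.28 ± 0.10 (SE, adjusted p = 0.0211, edgeR's quasi-likelihood test). That call was lost without control replicate 1 (-0.21, adjusted p = 0.118), without control replicate 2 (-0.27), without knockout replicate 1 (-0.27) or 2 (-0.28), and when the 2 groups were fitted alone (-0.30, adjusted p = 0.0611). Under TNFα Rnf31 fell by 0.47 in the same lines, and between the Atg5 and the double knockout on vehicle it fell by 0.996, from 13.9, 12.3 and 13.5 to 6.53, 6.46 and 6.87 CPM. A transcript can remain when a gene is cut and its protein is lost, and counts over the whole gene do not show the cut, so this check of the labels is a weak one on vehicle. The gene ends inside the annotated start of Irf9 on the same strand, and reads of the overlap cannot be assigned to either with certainty.

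Neighbours of Rnf31 moved in both directions. Psme2, a subunit of the proteasome activator induced by interferon, lies next to it and fell by 0.63 (length-corrected by 0.35), and its partner Psme1 fell by 0.34 (length-corrected by 0.23). Pck2, the mitochondrial enzyme that makes phosphoenolpyruvate, rose by 0.50, and the importin Ipo4 by 0.38. Irf9 itself had a log2 fold change of -0.18 ± 0.10 and was not called (adjusted p = 0.153). Medians of the nuclear chromosomes lay between -0.035 and 0.047. Of the runs of 25 neighbouring tested genes, the lowest median was -0.54, on chromosome 2 from 175469985 to 177957297, where 14 genes were lower and 0 higher (median under TNFα -0.33). Transcripts there were short. The 2 adjoining windows from 172370681 to 177957297, which include it, had a median length of 1749 nt and a median of -0.38, length-corrected -0.26.

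A long stretch of chromosome 8 stood higher in knockout cells. From 36216064 to 95853539 (GRCm38), 14 windows in a row had positive medians, 0.101 to 0.348, the longest such run of 1 sign in the genome. Of its 350 tested genes, 155 were higher (44.3%) and 15 lower (4.29%), with a median of 0.21 that the length correction left at 0.24. The median was also 0.21 between the same lines under TNFα and -0.02 between the double and the Atg5 knockout on vehicle. On the side toward the start of the chromosome, the 150 genes from 3122061 to 36161588 went the other way (12 higher, 53 lower, median -0.17). The stretch was singled out after its values were seen, and its cause was not tested. Cyld, Calr, Herpud1, Nfix and Isyna1, named below, lie in it.

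In all, 6165 of the 13527 genes were called at an adjusted p under 0.05, 45.6% of those tested. Of these, 3261 were higher (24.1% of those tested) and 2904 lower (21.5%) in Rnf31 knockout cells. The differences were mostly small: the median size among called genes was 0.33 on the log2 scale, 369 genes rose and 397 fell by more than 1.5-fold, 84 rose and 105 fell by more than 2-fold, and 16 rose and 21 fell by more than 4-fold. The 3 libraries of each group did not overlap for 5792 of the called genes. Over all 13527 tested genes this held for 7048, so a lack of overlap was common here. A stricter test, for changes larger than 2-fold (edgeR's glmTreat), left 6 genes: Setbp1, Nog, Stum, Map3k14 and Fgfr3 were higher and Nppb was lower. The group counts below are read against the background of 24.1% higher and 21.5% lower.

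**Figure D2:**
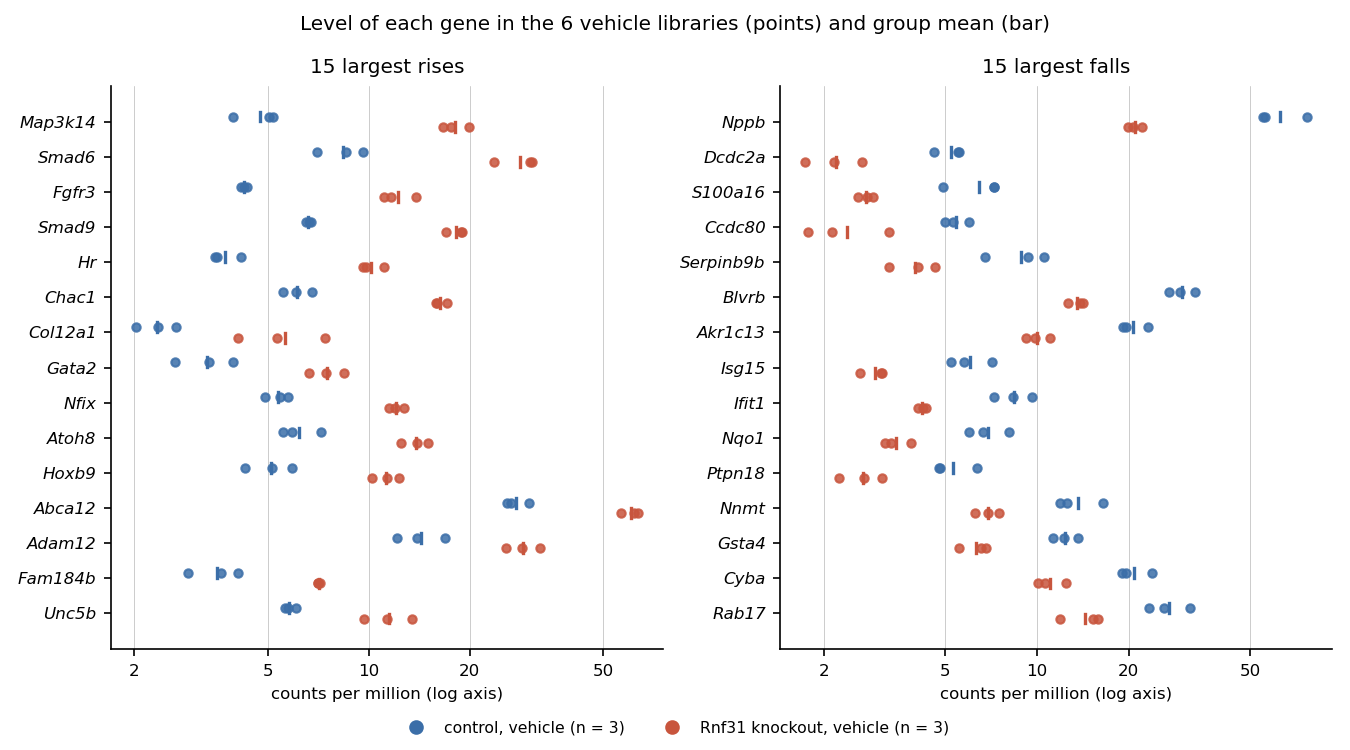
Level in CPM (log axis) of the 15 genes with the largest rises (left) and falls (right) among those with at least 5 CPM in the higher group and no overlap between libraries. Points are single libraries, bars group means, blue control and red Rnf31 knockout; Map3k14 sits at 3.94 to 5.21 CPM in control and at 16.7 to 19.99 CPM in knockout cells.

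The largest rise among genes with at least 5 CPM in the higher group was that of NIK. Map3k14, which encodes this kinase of the non-canonical NF-kB pathway, stood at 3.94, 5.05 and 5.21 CPM in control and at 17.6, 19.99 and 16.7 CPM in knockout libraries. Every knockout library was more than 3 times as high as every control library. The log2 fold change was 1.93 ± 0.12 (adjusted p = 9.321e-12, edgeR), and the length-corrected value was 1.87. Cells otherwise keep NIK low through Traf3, Traf2 and Birc2 or Birc3, which destroy it, and NIK acts on the p100 precursor made by Nfkb2. Nfkb2 rose from 28.5, 20.7 and 25.6 to 35.7, 37.0 and 37.8 CPM, by 0.57. Traf3 rose as well, from 48.5, 40.1 and 46.8 to 67.6, 65.7 and 69.6 CPM, with no overlap (0.58 ± 0.06, adjusted p = 1.167e-07, edgeR; length-corrected 0.36). Traf2 read 28.1, 30.4 and 33.6 CPM in control and 34.3, 35.8 and 36.0 CPM in knockout libraries (0.21). That call was lost without control replicate 1 (0.15), with the length correction (0.15) and with the 2 groups fitted alone (0.19). Birc3 went the other way, from 2.02, 1.43 and 1.38 to 1.01, 0.986 and 1.15 CPM (-0.61, adjusted p = 0.0279, edgeR). Its call was lost without control replicate 1 (-0.41), without knockout replicate 1 (-0.60) or 2 (-0.58) and with the 2 groups fitted alone (-0.63). Birc2 was not called (-0.10).

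Among subunits, inhibitors and targets of NF-kB, 8 of 21 tested genes were higher and 1 lower (5 and 1 with the 2 groups fitted alone), with a median of 0.22, while the median over all genes was 0.01. The subunit Rela rose by 0.41, from 40.9, 31.2 and 35.6 to 45.8, 47.6 and 49.9 CPM, and the signalling regulator Rgs16 rose by 0.43. Nfkbia, the inhibitor that NF-kB itself induces, read 9.80, 8.73 and 9.42 CPM in control and 13.3, 9.60 and 11.97 CPM in knockout libraries, and the groups overlapped. Its value of 0.32 (adjusted p = 0.0425, edgeR) lost its call without control replicate 2 (0.27) or 3 (0.33), without knockout replicate 1 (0.21) or 3 (0.28), with no filter (0.31), with a filter at 1 CPM (0.30) and with the 2 groups fitted alone (0.30). With the length correction Nfkbia stayed called, at 0.49. Tnfaip3, another induced inhibitor, read under 2 CPM in every library, and its value of 0.82 lost its call without control replicate 1 (0.67) or 3 (0.71), without knockout replicate 2 (0.49), with the length correction (0.63) and with the 2 groups fitted alone (0.82). Vcam1, an adhesion molecule that NF-kB induces, had a value of 0.06 and Relb, the partner of the Nfkb2 product, one of 0.11, and neither was called. Transcripts of Tnf itself were at 0.0337 CPM in 1 control library and at 0 in the other 5, so its transcript was at the limit of detection at this depth.

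The promoter of Nfkbia shows the letters searched for as an NF-kB site, GGANTTTCC on either strand. It is printed because this inhibitor is the textbook target of the factor. RefSeq (GRCm38.p6) gives the 250 bases upstream of its start as chr12:55492648-55492897 on the minus strand, and capitals mark the 2 matches.
Nfkbia: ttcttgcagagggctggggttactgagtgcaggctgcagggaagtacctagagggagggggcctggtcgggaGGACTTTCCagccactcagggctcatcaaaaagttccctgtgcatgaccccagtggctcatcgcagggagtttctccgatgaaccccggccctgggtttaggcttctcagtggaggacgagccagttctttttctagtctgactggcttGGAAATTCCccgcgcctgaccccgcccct
Such a match was present in 1.02% of the 9906 tested genes with a RefSeq promoter, in 0.909% of those higher and 0.935% of those lower in knockout cells. In the NF-kB list it was present in 5 of 16 promoters, 31.2%: 2 of the 6 higher genes, 0 of the 1 lower and 3 of the 9 not called. No match of that kind was found in the promoter window of Map3k14. These are matches of letters, not measured sites.

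At the TNF receptor itself few transcripts moved. Of 29 tested members of the receptor complex and the death effectors, 4 were higher and 4 lower (length-corrected 2 and 5), a smaller share than over all genes. The higher count was 2 without control replicate 2 or knockout replicate 2 or 3. Tradd, the first adaptor of the receptor, fell by 0.32 (length-corrected by 0.17), and Spata2, which brings Cyld to LUBAC, rose by 0.25. The receptor Tnfrsf1a read 86.1, 71.9 and 81.6 CPM in control and 75.2, 81.0 and 80.1 CPM in knockout libraries, which overlapped (-0.02 ± 0.06, adjusted p = 0.842, edgeR). The kinase Ripk1 (0.15) and the protease Casp8 (-0.11) were not called, at adjusted p = 0.0709 and 0.0509 in edgeR. Each passed in some alternatives: Ripk1 without control replicate 1 (0.19), and Casp8 in 7 of them (-0.14 to -0.11).

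Among LUBAC, its regulators and the enzymes that remove linear chains, 4 of 13 tested genes were higher and 3 lower (length-corrected 6 and 3). The 3 lower calls were not stable: 0 remained without control replicate 2 or with the 2 groups fitted alone, and 1 without control replicate 3 or any knockout library. Vcp, a segregase that acts on ubiquitinated proteins, rose from 600.0, 470.4 and 555 to 772, 791 and 809 CPM, by 0.55, with no overlap. The partner Rbck1 read 96.1, 88.4 and 93.8 CPM in control and 101, 104 and 108 CPM in knockout libraries, just apart (0.17, called, but not with the 2 groups fitted alone, where it was 0.15). The third subunit, Sharpin, was not called as counted (0.08, adjusted p = 0.273, edgeR) and was called with the length correction (0.20). Otulin had a value of 0.06 and was not called. Cyld, in the chromosome 8 stretch, rose by 0.28 as counted and had 0.03, uncalled, with the length correction.

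Genes of the BMP pathway showed a large shift. BMP ligands signal through receptors such as Bmpr2 to Smad1, Smad5 and Smad9, which switch on the Id genes and, as feedback, the inhibitory Smad6 and Smad7. Of 20 tested genes of the BMP and TGF-beta response, 12 were higher and 1 lower, with a median of 0.50 (length-corrected 10 and 3, median 0.31). Smad6 stood at 9.60, 7.01 and 8.57 CPM in control and at 30.8, 23.7 and 30.3 CPM in knockout libraries, more than a doubling in every library (1.75 ± 0.19, adjusted p = 8.067e-08, edgeR). Smad9 rose from 6.502, 6.73 and 6.62 to 18.8, 17.0 and 18.9 CPM (1.46 ± 0.14). Both groups were tight and lay far apart. The inhibitors of differentiation followed: Id3 rose from 111, 122 and 109.8 to 210.4, 197 and 214 CPM (0.86), Id1 from 14.8, 15.7 and 12.5 to 26.4, 23.3 and 25.2 CPM (0.80), and Id2 from 239, 252 and 239 to 367, 342 and 350.3 CPM (0.54). No Id gene overlapped between the groups. Noggin, a secreted BMP antagonist, was near the floor in control cells (0.135, 0 and 0.153 CPM) and read 1.69, 1.21 and 1.93 CPM in knockout libraries (Nog, 4.06 ± 0.56 as fitted, a value that depends on the prior count). The repressor Ski rose by 0.65.

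Other large rises were spread over several kinds of gene. Setbp1, a chromatin-associated protein, had 1 count in the control group and 236 in the knockout group (0.0337, 0 and 0 against 2.30, 2.12 and 3.82 CPM), a ratio of 247 with a 95% counting interval of 43.9 to 9810. Stum had 28 counts against 170, a ratio of 6.36 (4.25 to 9.86). These intervals cover counting error only. Fgfr3, a fibroblast growth factor receptor, rose from 4.25, 4.35 and 4.17 to 11.7, 11.1 and 13.8 CPM (1.52 ± 0.11, adjusted p = 1.581e-10, edgeR). Hr, a corepressor of hair follicle cells, rose from 4.18, 3.52 and 3.48 to 9.60, 9.82 and 11.1 CPM (1.45). Transcription factors were among the next in size: Gata2 (1.18), Nfix (1.17), Atoh8 (1.15) and Hoxb9 (1.15). Abca12, a lipid transporter of keratinocytes, rose from 29.98, 25.8 and 26.6 to 56.5, 63.4 and 61.8 CPM (1.14), and the netrin receptor Unc5b rose by 0.99. In none of these genes did the 2 groups overlap. For those from Fgfr3 to Unc5b, the rule that picked the largest rises required this. By absolute level, some of the largest gains were in Eef2, the translocation factor of translation (2329.9, 1786 and 2179 to 2844, 2839 and 2956 CPM, 0.46), the glycolytic enzymes Gapdh and Pkm, the chaperone Calr and the desaturase Scd2.

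Genes of the integrated stress response, which Atf4 switches on when amino acids run short or proteins misfold, were higher in 15 and lower in 2 of 28 tested (median 0.26). Chac1, which degrades glutathione, rose from 6.06, 6.79 and 5.55 to 15.9, 17.1 and 15.98 CPM, 1.41 ± 0.10 on the log2 scale. Asns, asparagine synthetase, rose from 98.1, 96.7 and 97.1 to 145, 158 and 150 CPM (0.64 ± 0.05, adjusted p = 1.12e-09, edgeR). The spread within each group was far smaller than the gap between the groups. The glycine transporter Slc6a9 (0.91), the pseudokinase Trib3 (0.68) and the folate enzyme Mthfd2 (0.52) rose too. Ddit3 (CHOP), the death-linked factor of the same response, went the other way as counted, from 31.2, 34.6 and 32.2 to 24.4, 23.3 and 26.3 CPM (-0.41), a call that the length correction ended (-0.12). Chaperones of the endoplasmic reticulum were higher in 11 and lower in 0 of 19, led by Herpud1 (0.55, from 84.0, 85.7 and 81.0 to 121, 121 and 126 CPM), Calr (0.36) and Hyou1 (0.30, length-corrected 0.19). Herpud1 and Calr lie in the chromosome 8 stretch. Hspa5 (BiP), a common marker of that group, was not called (-0.08). It was called without control replicate 1 (-0.13).

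As counted, lists of metabolic genes had medians close to that of the NF-kB list. Of 27 tested genes of cholesterol synthesis and uptake, 16 were higher and 1 lower (median 0.21). Srebf2, the factor that drives this pathway, rose from 169, 154 and 176 to 223, 222 and 232 CPM (0.44), with no overlap. Glycolysis genes were higher in 12 and lower in 2 of 24 (median 0.22), or 8 and 1 without control replicate 2. Hk2, the first enzyme of the path, rose from 89.4, 59.4 and 80.2 to 134, 117 and 111 CPM (0.66), while the lactate dehydrogenase subunit Ldhb fell by 0.43 (length-corrected by 0.22). Hypoxia-inducible genes were higher in 10 and lower in 1 of 24 (median 0.22). The length correction left 7 and 0, with a median of 0.14. The counts were 6 and 1 without control replicate 2 and 5 and 2 without knockout replicate 1. Among these genes Ndrg1 rose by 0.61 and Egln3, an oxygen sensor, by 0.85.

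Genes that mark a mesenchymal or dedifferentiated melanoma state were higher in 14 and lower in 2 of 29 tested (median 0.23). Fibronectin (Fn1) rose from 52.5, 45.9 and 50.4 to 71.6, 81.9 and 85.4 CPM (0.69 ± 0.08, length-corrected 0.42), the collagen Col5a1 rose by 0.80 (length-corrected 0.53) and Col12a1 by 1.27. The receptor kinase Axl, a marker of melanoma cells that resist therapy, rose from 13.0, 12.1 and 12.9 to 19.8, 19.5 and 20.9 CPM (0.66). None of these 4 genes overlapped between the groups. Fibroblast-defining genes also summed higher in knockout libraries (above), through Col1a1 (0.84) and Pdgfra. Pdgfrb, the other gene in that sum, did not rise: it read 6.06, 5.84 and 6.47 CPM in control and 5.64, 6.26 and 5.72 CPM in knockout libraries. Pdgfra read 0.943, 1.02 and 1.19 CPM in control and 1.65, 1.82 and 1.80 CPM in knockout libraries. Its call was lost with the length correction (0.53), without control replicate 1 or 2 and without knockout replicate 2 or 3. The part of fibroblast-defining genes in this group was not tested. Genes of the neural crest and axon guidance were higher in 18 and lower in 0 of 32 (length-corrected 14 and 1): the semaphorin receptors Plxnb1 (0.70, length-corrected 0.43) and Plxnd1 (0.64, length-corrected 0.42), the ephrin receptor Epha2 (1.25) and the neuregulin receptor Erbb3 (0.50, length-corrected 0.32). Of 12 tested Notch genes 5 were higher and 0 lower, with the coactivator Maml2 at 0.87, and of 20 Wnt genes 8 were higher and 1 lower. The length correction left 3 and 0 of the former and 4 and 1 of the latter. The Wnt count was also 4 and 1 without control replicate 2 and 5 and 1 without knockout replicate 1 or 3. Among cadherins and integrins 10 of 29 were higher and 4 lower (length-corrected 6 and 5), with Cdh13 (1.05) and Itga7 (1.68) higher and Itgb1 (-0.21) lower.

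The largest fall by the same filter was that of a natriuretic peptide. Nppb, which encodes B-type natriuretic peptide, stood at 54.9, 76.8 and 56.1 CPM in control and at 22.2, 20.6 and 19.9 CPM in knockout libraries (-1.59 ± 0.11, adjusted p = 1.581e-10, edgeR). The knockout values were close together and, as that filter required, all below the lowest control value. Several enzymes that handle oxidants were among the next in size. Blvrb, a biliverdin reductase, fell from 27.1, 32.9 and 29.5 to 13.9, 12.6 and 14.1 CPM (-1.14), and the quinone reductase Nqo1 fell from 5.96, 8.09 and 6.66 to 3.19, 3.87 and 3.33 CPM (-0.999). The glutathione transferase Gsta4 fell from 12.3, 13.6 and 11.3 to 6.57, 6.83 and 5.56 CPM (-0.98). These groups did not overlap, which the rule that picked the largest falls required. Over the list of Nrf2 targets and antioxidant enzymes, 7 of 27 were higher and 12 lower (length-corrected 6 and 8). The higher count was 4 without control replicate 2 or knockout replicate 2 and 3 without knockout replicate 3, with 11 or 12 lower in each case. Gpx4, which repairs lipid peroxides, fell from 515, 687 and 549 to 378, 366 and 369 CPM (-0.65, length-corrected -0.37), and Prdx1, a peroxiredoxin, from 1737, 2191 and 1811 to 1285, 1302 and 1307 CPM (-0.56). The iron-storing ferritin heavy chain Fth1 fell from 2091, 2265 and 2043 to 1382, 1407 and 1407 CPM (-0.61). The light chain Ftl1 fell by 0.13 as counted and had a value of 0.15, called in the other direction, with the length correction. Further falls were those of Ccdc80 (-1.16), Serpinb9b (-1.15), Nnmt (-0.99, length-corrected -0.64 without control replicate 2) and Rab17 (-0.92).

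Part of the interferon-stimulated genes was lower. Type I interferon receptors signal through a STAT complex with Irf9, which binds the interferon-stimulated response element in front of these genes. Of 50 tested, 10 were lower and 3 higher, with a median of -0.18, so the share lower was close to the 21.5% of all genes and the share higher below the 24.1%. The lower count was 6 with the 2 groups fitted alone, and the higher count was 5 without control replicate 1. Isg15, a ubiquitin-like modifier, fell from 5.22, 7.14 and 5.74 to 2.62, 3.07 and 3.11 CPM (-1.04 ± 0.16, adjusted p = 6.693e-06, edgeR; length-corrected -0.68). Ifit1, which binds foreign RNA, fell from 8.32, 9.62 and 7.23 to 4.31, 4.06 and 4.23 CPM (-1.004 ± 0.13, adjusted p = 1.039e-06, edgeR). In both genes the highest knockout value lay below the lowest control value, which the rule that picked the largest falls required. Ifit3 (-0.81), the guanylate-binding protein Gbp2 (-0.76) and Ifi27 (-0.55, length-corrected -0.26) fell as well, while the ubiquitin ligase Dtx3l rose by 0.65. Ifit2 (0.04) and Rsad2 (0.05) were not called.

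The promoters of Isg15 and Ifit1 are shown because they had the largest falls of this list among genes above 5 CPM. Capitals mark GAAANNGAA, the letters searched for as the response element, on either strand, with overlapping matches run together. RefSeq (GRCm38.p6) places the first at chr4:156200819-156201068 on the minus strand and the second at chr19:34640639-34640888 on the plus strand, and each holds 3 matches.
Isg15: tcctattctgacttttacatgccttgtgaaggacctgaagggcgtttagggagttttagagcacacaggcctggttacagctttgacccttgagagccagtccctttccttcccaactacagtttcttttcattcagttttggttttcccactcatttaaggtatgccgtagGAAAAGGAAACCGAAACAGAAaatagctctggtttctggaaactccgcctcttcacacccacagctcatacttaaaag
Ifit1: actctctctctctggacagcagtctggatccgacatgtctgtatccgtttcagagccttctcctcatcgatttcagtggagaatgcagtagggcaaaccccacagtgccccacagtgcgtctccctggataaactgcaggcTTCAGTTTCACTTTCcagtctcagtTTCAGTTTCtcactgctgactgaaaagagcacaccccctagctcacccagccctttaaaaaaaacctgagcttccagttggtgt
Those letters were present in 5.89% of the promoters of all tested genes, in 7.35% of those of genes that fell and 5.27% of those of genes that rose. Among genes with a promoter that changed by more than 2-fold, 12 of the 55 that fell held them (21.8%) and 4 of the 53 that rose (7.55%). These promoters were 53.2% G or C for the genes that fell and 62.5% for those that rose, against 60.4% for all. For all called genes the shares were 58.6% and 62.7%. The part of base composition in the gap was not tested. Within the list the letters were in 18 of 37 promoters (48.6%), among them 7 of the 8 lower genes, 1 of the 3 higher ones and 10 of the 26 not called.

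Antigen presentation did not move as a block. Of 21 tested genes of the MHC class I path 6 were higher and 4 lower. The chaperones Calr and Canx (0.25) rose, and the immunoproteasome-linked Psme1 and Psme2 fell. The class I heavy chain H2-K1 read 8.39, 5.84 and 8.84 CPM in control and 11.5, 7.93 and 9.05 CPM in knockout libraries, which overlapped, and was not called (0.31 ± 0.15, adjusted p = 0.0984, edgeR). It passed without control replicate 3 (0.42), without knockout replicate 2 (0.40) and with the length correction (0.43). Of 14 tested ligands and checkpoints seen by lymphocytes, 5 were lower and 0 higher. Galectin-3 (Lgals3) fell from 497, 534 and 507 to 305, 306 and 295 CPM (-0.77), and Raet1d, a ligand of the NKG2D receptor, fell by 0.72, while Cd274 (PD-L1) had a value of -0.19 and was not called. Of 19 chemokines and cytokines 5 were lower and 1 higher, or 3 and 2 with the length correction, 2 and 1 without control replicate 2 and 3 and 1 without knockout replicate 2. The growth factor Csf1 rose from 10.3, 9.27 and 10.8 to 14.1, 12.5 and 14.9 CPM (0.45), the chemokine Ccl5 fell from 2.998, 2.89 and 3.25 to 2.42, 1.06 and 1.65 CPM (-0.84, length-corrected -0.47), and osteopontin (Spp1) fell by 0.78.

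Pigment genes were lower in 12 and higher in 5 of 26 tested. Tyr, the rate-limiting enzyme of melanin synthesis, fell from 683, 834 and 754 to 496, 478 and 512 CPM (-0.61 ± 0.06, adjusted p = 1.664e-08, edgeR). Dct, which acts after it, fell from 6706, 7775 and 7115 to 5814, 5607 and 5613 CPM (-0.34), and the melanocortin receptor Mc1r fell by 0.39. Mitf, the master factor of the lineage, fell by 0.27. The factors Sox10 (0.40) and Tfap2a (0.59), which act with or upstream of Mitf, rose. Pmel (0.07) and Tyrp1 (-0.05) were not called.

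Mitf binds a short motif called the M-box in the promoters of pigment genes, and the windows of Tyr and Dct are printed because both fell and both hold its core, TCATGTG, on one strand or the other (capitals; 1 match in Tyr and 2 in Dct). RefSeq (GRCm38.p6) places them at chr7:87493513-87493762 and chr14:118052247-118052496, both on the minus strand.
Tyr: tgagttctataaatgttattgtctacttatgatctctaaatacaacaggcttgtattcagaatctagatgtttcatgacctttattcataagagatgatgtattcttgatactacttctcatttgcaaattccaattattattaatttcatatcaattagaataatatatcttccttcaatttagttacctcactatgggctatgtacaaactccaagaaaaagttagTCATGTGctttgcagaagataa
Dct: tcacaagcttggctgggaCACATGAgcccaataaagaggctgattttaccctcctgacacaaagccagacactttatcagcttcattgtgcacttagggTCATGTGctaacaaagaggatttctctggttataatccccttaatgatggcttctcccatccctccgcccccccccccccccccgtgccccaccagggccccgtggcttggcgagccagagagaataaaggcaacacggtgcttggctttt
The core was in 1.71% of all promoters, in 2.23% of those of lower and 1.1% of those of higher genes. Promoters of lower genes were 58.6% G or C and those of higher genes 62.7%. In the pigment list 7 of 19 promoters held the core (36.8%): 5 of the 9 lower genes, 0 of the 4 higher ones and 2 of the 6 not called.

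Lysosomal genes were lower in 18 and higher in 4 of 36 tested (length-corrected 18 and 3). The higher count was 2 without control replicate 2 or knockout replicate 1 or 3. The protease Ctsb fell from 860, 881 and 858 to 627, 624 and 621 CPM (-0.47), the hexosaminidase Hexa from 417, 447 and 409 to 323, 309 and 331 CPM (-0.40), and the protease Ctsd by 0.32. These values varied little within each group and were apart between them. Lamp1, the main membrane protein of lysosomes, fell from 583, 592 and 580 to 519, 516 and 527 CPM (-0.17, length-corrected -0.08). Its promoter is printed as that of a lysosomal gene with a small fall: RefSeq (GRCm38.p6) places it at chr8:13158911-13159160 on the plus strand, and capitals mark the E-box CACGTG, which the factors Tfeb and Tfe3 bind.
Lamp1: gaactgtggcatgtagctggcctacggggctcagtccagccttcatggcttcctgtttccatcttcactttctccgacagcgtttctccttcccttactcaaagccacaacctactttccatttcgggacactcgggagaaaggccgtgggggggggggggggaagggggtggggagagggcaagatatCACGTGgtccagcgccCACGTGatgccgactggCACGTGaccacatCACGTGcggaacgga
It holds 4 matches close to the start. The hexamer reads the same on both strands and overlaps no other motif searched. It was in 8.55% of all promoters, 8.95% of those of lower and 8.56% of those of higher genes. Of the lysosomal promoters 9 of 26 held it (34.6%): 5 of the 12 lower, 1 of the 3 higher and 3 of the 11 not called. Genes of autophagy had shares near those of all genes, with 10 of 35 higher and 9 lower, or 6 and 8 without control replicate 2. Atg9a, which supplies membrane, rose by 0.60 and the receptor Nbr1 by 0.45 (length-corrected 0.29 without control replicate 2), while the small modifiers Map1lc3b (159, 198 and 163 to 119, 122 and 120.0 CPM, -0.52) and Gabarapl2 (-0.60) fell. Sqstm1 (p62), a receptor that autophagy degrades, was not called (0.06).

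Targets of p53 were lower in 9 and higher in 2 of 20 tested (length-corrected 7 and 3). The cyclin Ccng1 fell from 189, 232 and 214 to 127, 141 and 142 CPM (-0.63), Phlda3 by 0.40 (length-corrected by 0.21) and Mdm2, the ligase that degrades p53, by 0.34. Genes of replication and mitosis were higher in 15 and lower in 9 of 40, or 9 and 9 without control replicate 2 and 8 and 8 without knockout replicate 3. Mki67, a marker of cycling cells with a long transcript, rose from 165, 142 and 148 to 243, 245 and 249.9 CPM (0.69, length-corrected 0.39), whereas the sliding clamp Pcna fell from 732, 842 and 756 to 624, 646 and 622 CPM (-0.30, length-corrected -0.12) and the kinase Cdk1 fell by 0.33. Of 20 genes of the Bcl2 family and the apoptosome 2 were higher and 6 lower (1 and 4 with the length correction or without control replicate 2, 1 and 6 without knockout replicate 3), and the cell-killing Bcl2l11 (Bim) rose from 4.04, 4.16 and 4.17 to 6.53, 6.45 and 6.31 CPM (0.64).

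Shares called in the remaining lists varied. Of 30 interferon receptors, STAT and IRF factors and nucleic acid sensors, 8 were higher and 3 lower (8 and 1 without control replicate 3): the transcription factor Stat3 rose by 0.54 (length-corrected 0.29 without control replicate 2), while the receptor Tlr4 fell by 0.61. Immediate early genes were higher in 7 and lower in 2 of 21 (length-corrected 8 and 1). The lower count was 1 without any 1 control library, and the higher count was 4 without knockout replicate 3. Junb, Jund, Ier2 and Klf2, 4 of the 7 higher genes, lie in the chromosome 8 stretch. Feedback regulators of ERK were higher in 4 and lower in 4 of 17, with 2 lower without control replicate 1 or 3 or knockout replicate 1 or 2, and imprinted genes higher in 4 and lower in 3 of 12, among them Peg10 at 0.62 (length-corrected 0.41). Of wider marker lists of other cells, 3 of 16 leukocyte genes were tested and 2 were lower, lysozyme (Lyz2) falling from 1.89, 2.06 and 1.49 to 0.645, 0.493 and 0.560 CPM. The other, Cd68 (-0.58), lost its call with the length correction (-0.35), without control replicate 3 (-0.53) and without knockout replicate 2 (-0.52). Tested endothelial genes were 2 of 10, with Egfl7 lower (-0.58), and both were lower with the length correction. Fibroblast genes were 5 of 10, with 2 higher. The length correction left 1 higher and 1 lower of these, and 1 was higher without control replicate 1 or 2 or knockout replicate 2 or 3. Keratinocyte genes were 2 of 12, with 0 called.

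Short, abundant transcripts gave the most one-sided groups. Cytosolic ribosomal protein genes were lower in 45 and higher in 0 of 52 tested, with a median of -0.34, and the length correction left 27 lower and 8 higher with a median of -0.10. Rps14 fell from 1362, 1763 and 1388 to 1042, 1060.0 and 1039 CPM (-0.52, length-corrected -0.24). Nuclear-encoded genes of the respiratory chain were lower in 32 and higher in 1 of 40 (median -0.32), and 18 and 9 with the length correction (median -0.05). Cox4i1, a cytochrome oxidase subunit, fell from 709, 931 and 749.6 to 560.4, 551 and 521 CPM (-0.55, length-corrected -0.21). In both genes control replicate 2 was the highest library. The 13 mitochondrially encoded genes were lower in 10 and higher in 0 cases (median -0.40), 2 and 0 with the length correction (median -0.12) and 6 and 0 without control replicate 2. They took 0.588%, 0.724% and 0.640% of the counts in control and 0.48%, 0.5% and 0.521% in knockout libraries.

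**Figure D3:**
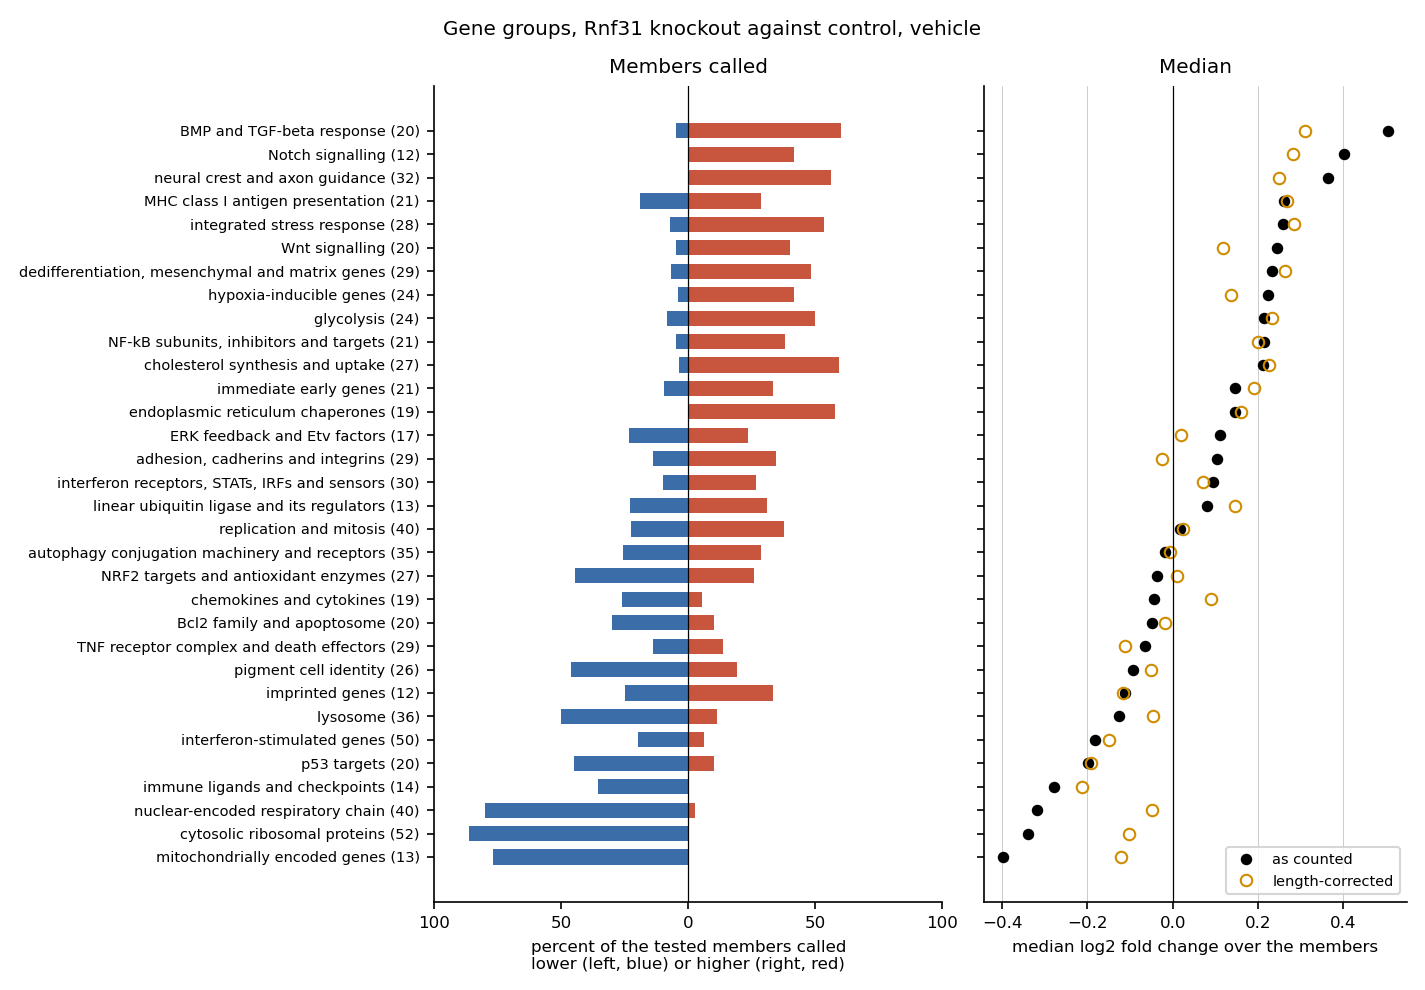
Left, the percent of tested members (number in brackets) of 32 gene groups called higher (right, red) or lower (left, blue) in Rnf31 knockout cells on vehicle; right, the median log2 fold change of each group as counted (filled) and length-corrected (open). The BMP group has the highest median (0.50) and keeps 0.31 after the correction, while the ribosomal group goes from -0.34 to -0.10.

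The same lines under TNFα, in 6 other libraries, repeated much of this list. There 4370 genes were called (32.3%). Of the vehicle calls, 1888 of the 3261 higher genes (57.9%, and 79.1% of those higher under TNFα) and 1702 of the 2904 lower genes (58.6%, and 85.8%) were called in the same direction, and 2 in each direction were called in the opposite one. These are other cultures of the same lines. The difference between the vehicle and the TNFα effect was called for 1 gene (0.00739% of those tested), while 1643 had an unadjusted p under 0.05 and DESeq2 called 55. Without control replicate 1 the count was 113, without control replicate 2 it was 6 and without control replicate 3 it was 2. Map3k14 rose by 1.94 under TNFα, from 3.74, 4.73 and 5.16 to 17.7, 17.8 and 17.2 CPM, Smad6 by 1.31 and Fgfr3 by 1.41, and Nppb fell by 0.91.

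Loss of Rnf31 in Atg5 knockout cells gave a different picture for part of the genes. The double knockout was compared with the Atg5 knockout on vehicle, again with no library in common, and 5150 genes were called (38.1%). Over all tested genes, 18.2% were higher and 19.8% lower there. Of the vehicle calls in Atg5-intact cells, 952 higher genes (29.2%, and 38.6% of the other list) were met in the same direction. So were 659 lower genes (22.7%, and 24.6%), a share near the 19.8% of all genes. In the opposite direction 585 (17.9%) and 489 (16.8%) were met, shares slightly below the 19.8% lower and 18.2% higher of all genes. A test of the difference between the 2 effects called 5511 genes (40.7%). All 1074 of the opposite ones were among them, which was nearly bound to occur, since each was called in both comparisons with opposite signs. Under TNFα, 5169 genes were called between the double and the Atg5 knockout (38.2%), 2538 of them higher and 2631 lower. There 1233 higher (37.8%) and 779 lower genes (26.8%) were met in the same direction and 417 (12.8%) and 332 (11.4%) in the opposite one. Lines and genotypes cannot be told apart in these contrasts.

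**Figure D4:**
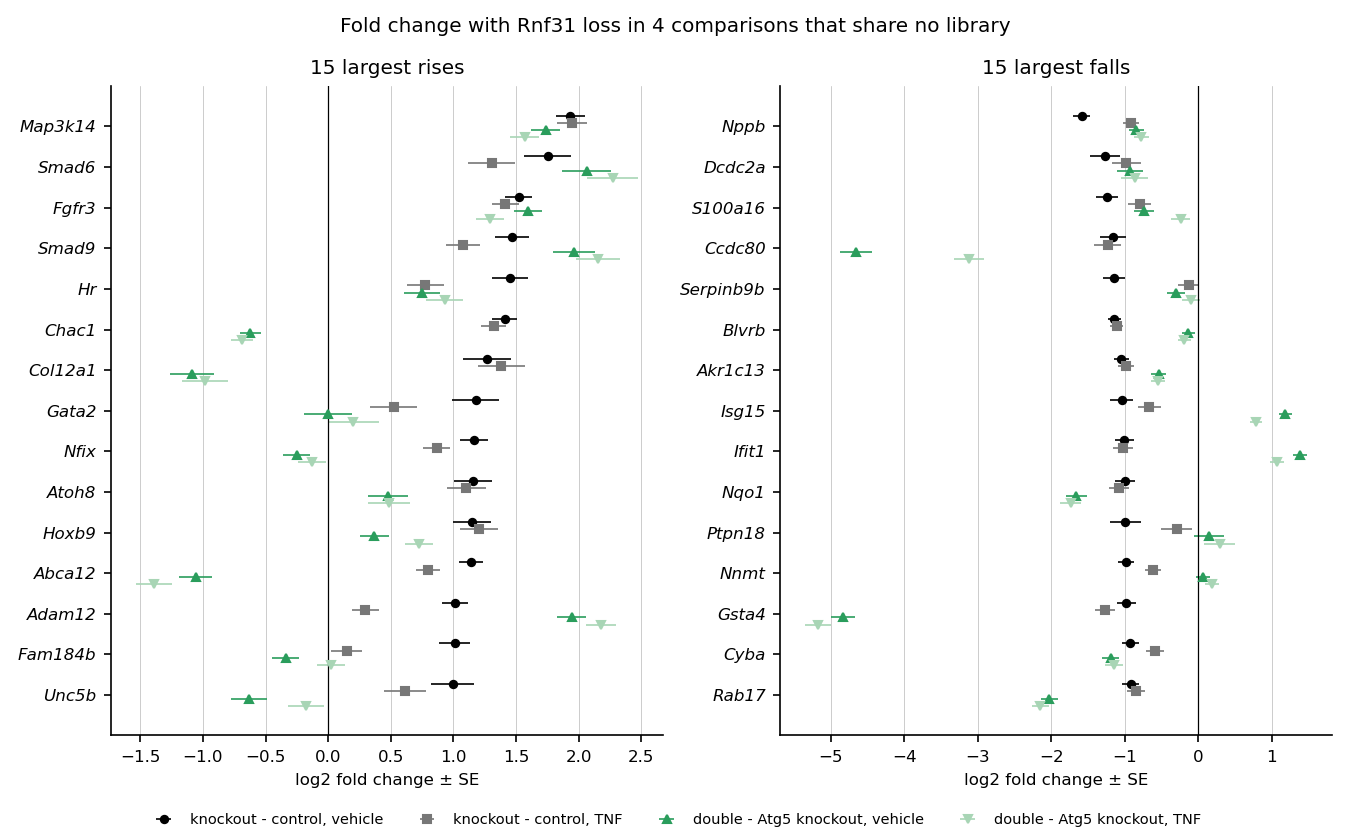
Log2 fold change ± SE with loss of Rnf31 for the 15 largest rises (left) and falls (right) of the vehicle comparison (black), with the values of the same lines under TNFα (grey) and of the double against the Atg5 knockout on vehicle and under TNFα (dark and light green). Map3k14, Smad6, Fgfr3 and Smad9 lie above 1 in all 4; Isg15 and Ifit1 lie below 0 in the Atg5-intact lines and above 0 in the others.

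The genes called in the same direction in all 4 comparisons numbered 481 higher (14.8% of the vehicle calls) and 340 lower (11.7%). NIK was among them: Map3k14 rose by 1.74 in Atg5 knockout cells, from 5.47, 5.20 and 4.86 to 18.3, 17.1 and 16.5 CPM, and by 1.57 there under TNFα. The test of the difference between the 2 backgrounds on vehicle gave -0.20 (adjusted p = 0.363, edgeR). BMP genes were called there again, with Smad6 at 2.06, Smad9 at 1.96, Id1 at 1.78, Id2 at 2.22 and Id3 at 2.27. Fgfr3 recurred at 1.596, the inositol synthase Isyna1 at 0.82 (0.98 on vehicle in Atg5-intact cells), the large ubiquitin ligase Rnf213 at 0.79 (0.81, length-corrected 0.43) and the cell-shape regulator Mtss1 at 0.70 (0.70). Among the falls met in all 4 were Nppb (-0.84), Nqo1 (-1.66), Gsta4 (-4.83), the adaptor Shc4 (-0.95, from -0.70) and the heparan-cleaving enzyme Hpse (-0.83, from -0.80).

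Gene lists had other counts in Atg5 knockout cells, where 18.2% of all genes were higher and 19.8% lower. No test of a difference between lists was run. Interferon-stimulated genes, with 3 higher and 10 lower of 50 in Atg5-intact cells (the latter near the share of all genes), were 33 higher and 4 lower there, with medians of -0.18 and 0.59. Isg15 went from 59.8, 52.5 and 54.8 CPM in the Atg5 knockout to 135, 120 and 125 CPM in the double knockout (1.19), and Ifit1 from 25.2, 24.5 and 24.7 to 71.2, 54.5 and 69.3 CPM (1.39). For the NF-kB list the counts were 8 higher and 1 lower in Atg5-intact cells and 3 higher and 16 lower in Atg5 knockout cells (medians 0.22 and -0.88). Map3k14 rose in both, while Nfkb2 rose by 0.57 in the former and fell by 0.36 in the latter. Genes of the integrated stress response went from 15 higher and 2 lower to 2 higher and 18 lower, and Chac1 from 1.41 to -0.62. Mesenchymal genes went from 14 higher and 2 lower to 1 higher and 20 lower. Fn1 fell there from 615, 606 and 632 to 170, 208 and 197 CPM (-1.69), and Axl fell by 1.55. Pigment genes were 17 higher and 2 lower there, against 5 and 12. Chaperones of the endoplasmic reticulum (14 higher, 0 lower) and cholesterol genes (14 higher, 2 lower) had more higher than lower genes in both.

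**Figure D5:**
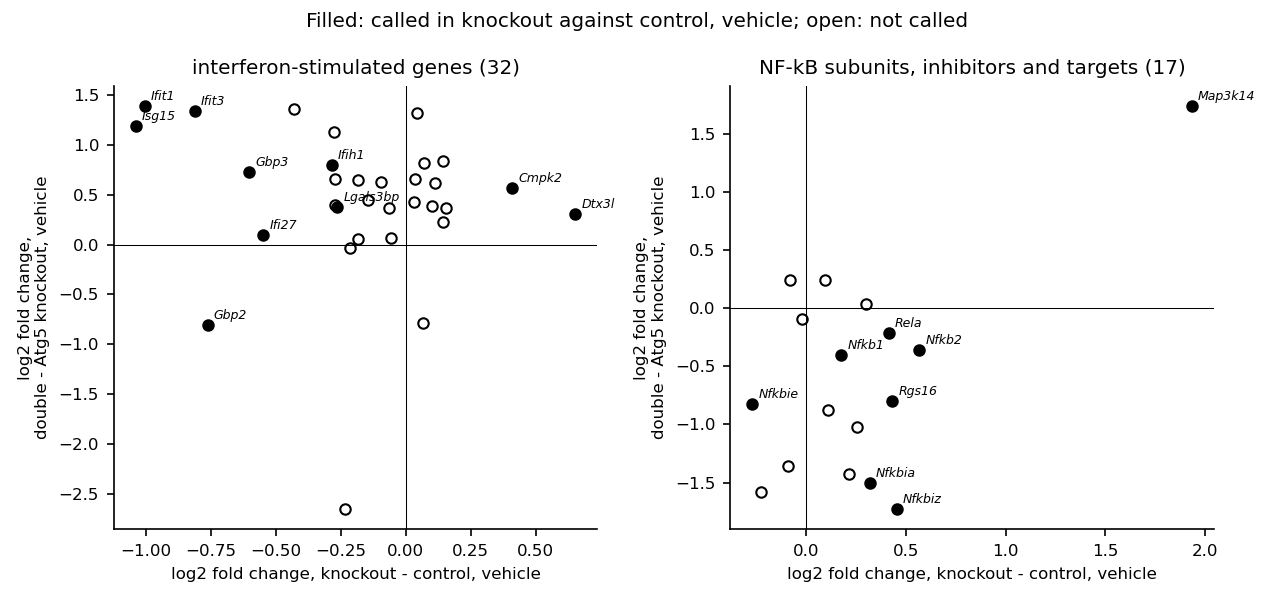
Each point is a gene with a mean of at least 1 CPM over the groups, with its log2 fold change on loss of Rnf31 in Atg5-intact cells (x) and in Atg5 knockout cells (y), both on vehicle; filled points were called in the former. Of the 32 interferon-stimulated genes (left) Isg15, Ifit1 and Ifit3 lie at the upper left, and of the 17 NF-kB genes (right) Map3k14 stands alone at the upper right.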

How the data were processed

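Total RNA was sequenced from B16F10 cells, and the authors deposited expected counts for each gene symbol, without normalization and as whole numbers. STAR, RSEM, DESeq2, GRCm38 and mm10 are named, without versions, in the submitters' processing notes. The sources used here give no library kit, strand setting or annotation, and reads shared by overlapping or antisense genes cannot be assigned. The table has 15739 rows, of which 23 equal another row. The 1 row with no name, on average 0.14% of a library, was not used.

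Sample labels gave the groups. The analysis used edgeR 4.0.16 (R 4.3.3) with TMM scaling, filterByExpr (which removed 2211 genes) and the quasi-likelihood test on 8 group means over 24 libraries. A gene was called at a Benjamini-Hochberg adjusted p under 0.05. Fold changes are log2 estimates with SE. Levels are CPM by TMM library size. The biological coefficient of variation was 6.17%, and the test was tested on simulated data. Effects under TNFα and in Atg5 knockout cells, and their differences from the vehicle effect, are contrasts of the same fit.

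The comparison and the 36 gene lists were chosen with earlier results of these data known, and lists are described by counts and medians with no test. Genes were named by a rule: Rnf31, the 15 largest called changes in each direction (at least 5 CPM in the higher group, no overlap), the 8 largest in CPM, genes with 3 or fewer counts in 1 group, from each list the 4 genes of lowest adjusted p, the 5 neighbours on each side of Rnf31, the 15 genes with the largest changes called in all 4 comparisons in each direction, and the 10 with the largest opposite effects in Atg5 knockout cells. Others (such as Nog, Id2, Trib3, Slc6a9, Ifit3, Gbp2, Mitf, Sox10, Lamp1, Nfkbia, Tnfaip3, Sharpin, Rbck1 and H2-K1) were chosen after their values were seen.

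Coordinates and transcript lengths (longest transcript, known for 98.7% of tested genes) are from GENCODE M21 on GRCm38. The length correction (lowess, span 0.3, entered as an offset) was an alternative, as were RLE scaling, no low-count filter, a minimum mean of 1 CPM, robust spread, glmTreat at a log2 fold change of 1, DESeq2 1.42.0, the 2 groups alone, a replicate block and leaving out each library. The length correction without control replicate 2 was added after seeing the data. Promoters are the 250 bases before the RefSeq start, matched for 9906 tested genes by symbol.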

Additional observations from a re-analysis of the deposited data

Results flagged for a closer look

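In edgeR's test of the difference itself, the effect of Rnf31 loss on vehicle differed between Atg5-intact and Atg5 knockout cells for 5511 genes. The values that follow are the effect in Atg5 knockout cells minus that in Atg5-intact cells, on the log2 scale, and each passed that test.

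For genes higher with Rnf31 loss in Atg5-intact cells, the difference was negative for all named here but Adam12. This describes the pick and not rising genes in general: Id1, Id2 and Id3, outside the pick, rose more in Atg5 knockout cells (above). The smallest belonged to the transcription factors Atoh8 (-0.68) and Hoxb9 (-0.78) and to the corepressor Hr (-0.70), which were called higher in both backgrounds. It was -1.18 for Gata2, -1.42 for Nfix, -1.35 for Fam184b and -1.62 for the netrin receptor Unc5b. Chac1 had a difference of -2.03, Abca12 of -2.20, and the matrix genes Fn1 and Col12a1 of -2.37 and -2.35. Axl had -2.21, the cytokine Csf1 -2.47, the peptide hormone Adm -2.44, the adaptor Dok4 -2.33 and the membrane-shaping Ehd2 -2.28. The calls of Adm and Ehd2 in Atg5-intact cells were lost without control replicate 2 (0.40 and 0.26) and without knockout replicate 1 (0.40 and 0.29). That of Ehd2 was also lost without knockout replicate 3 (0.25), with the length correction (0.20) and with the 2 groups fitted alone. Adam12, a membrane protease, had a difference of 0.93. Btn2a2, a butyrophilin, read 12.6, 14.6 and 12.4 CPM in control and 23.2, 23.1 and 22.6 CPM in Rnf31 knockout cells, but 0.795, 0.938 and 0.759 CPM in the Atg5 knockout and 0, 0.0345 and 0 CPM in the double knockout. Its fitted difference of -6.46 rests on almost no counts and depends on the prior count.

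For genes that fell in Atg5-intact cells the sign varied. Isg15 (2.22) and Ifit1 (2.39) went from lower to higher. The fall was smaller in Atg5 knockout cells for Nppb (0.74), Akr1c13 (0.51), S100a16 (0.51) and Serpinb9b (0.85), and also for Blvrb (1.004), Nnmt (1.05) and Ptpn18 (1.14), which had values of -0.13, 0.06 and 0.15 there. It was larger for Nqo1 (-0.66), Rab17 (-1.11), Ccdc80 (-3.49) and Gsta4 (-3.85).

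Between the vehicle effect and the effect under TNFα, 1 gene differed. Tmod1, which caps actin filaments, fell by 0.40 on vehicle, from 47.8, 50.8 and 51.4 to 36.9, 38.1 and 38.5 CPM, and had a value of 0.11 under TNFα, a difference of 0.52 (adjusted p = 0.00689, edgeR).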

How the results depend on the processing

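The count of genes called in Rnf31 knockout cells on vehicle was 4676 to 6454 when 1 library was left out, the lowest without control replicate 2, and 5230 with the length correction (2665 higher, 2565 lower). Of 6103 vehicle calls with a length, 4219 kept their direction under the correction and 30 were called in the opposite one. Without control replicate 2, 4589 of the 6165 calls remained and 0 turned. With both changes together, chosen after seeing the data, 3733 genes were called (1857 higher, 1876 lower, 58 lower by over 2-fold), 6 differed between the vehicle and the TNFα effect, and 7 vehicle calls were opposite under TNFα. In that setting Ftl1 had a value of 0.0903 and Eef1a1 one of 0.0136, and with the length correction alone Ftl1 had 0.15, all against falls as counted; the cause was not tested. A filter at a mean of 1 CPM left 41 genes higher and 55 lower by over 2-fold, and with the groups alone 67 were lower by over 2-fold. The stricter glmTreat called 6 genes on vehicle (5 higher, 1 lower), 3 under TNFα, 259 and 228 between the double and the Atg5 knockout on vehicle and under TNFα, and 0 and 177 for the differences of the effect by TNFα and by background. By that test 3, 4 and 3 of the vehicle calls were met in the same direction in the other comparisons and 0 in the opposite one, and 3 higher and 0 lower genes were met in all 4. The count of genes whose effect differed between vehicle and TNFα was 3 with robust estimation, 14 with the length correction, 55 with DESeq2, and 1 to 113 when 1 library was left out, the highest without control replicate 1. Vehicle calls opposite under TNFα numbered 2 with robust estimation, 13 with the length correction and 2 to 4 when 1 library was left out.

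Same-numbered control and knockout libraries deviated with correlations of -0.25, 0.143 and 0.009, and libraries of unlike numbers with -0.198 to 0.237. With so few libraries these values cannot settle whether the numbers pair the samples. A replicate block gave 6243 vehicle calls and 11 genes for the difference between vehicle and TNFα. Low counts limit genes under about 1 CPM. Leaving out 1 library also ended calls above that level, among them those of Rnf31, Nfkbia and Traf2.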
